A study of Saccharomyces cerevisiae with 6 samples.

Results

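The genes described here encode the soluble factors that drive translation in the yeast Saccharomyces cerevisiae: initiation factors, elongation factors and the release factors that end a protein. They were taken by name, as 37 of the 6526 genes of the deposited expression table. RNA from 4 wine strains was sequenced at mid exponential growth in MS300, a synthetic imitation of white grape must, at the point where fermentation had given off 6 g/l of CO2. VL3 and AWRI796, both enological strains, were each measured without SO2 and with 25 mg/l of SO2, the sulfite preservative of winemaking. For EC1118, also enological, and the vineyard strain R008, only the cultures with 25 mg/l of SO2 are described; those without are not analysed here. Each of these 6 groups is 1 library, so no group has a replicate, and what the labels give does not say how many cultures stand behind a library.

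Initiation assembles a ribosome at a start codon: eIF2 brings the initiator tRNA as a GTP complex, eIF2B recharges eIF2 with GTP, eIF3 and the start codon factors act on the small subunit, and the eIF4 factors with Pab1 hold the capped and polyadenylated mRNA. Elongation then cycles eEF1A, which delivers aminoacyl-tRNA, and eEF2, which moves the ribosome on, with the fungal factor eEF3 and with eIF5A helping at difficult peptide bonds. In yeast these proteins are abundant, and their mRNAs are known to be made together with those of the ribosome in fast growth.

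All members passed the filter on low values, a mean of at least 5 RPKM (reads corrected for the length of the gene and the size of the library). Pairs of nearly identical genes were summed, since reads cannot be assigned surely between them, which gave 34 genes or sums, 33 of them with a value in every library. The exception was TEF4, which had a value in 3 libraries. Levels are scaled RPKM, meaning RPKM divided by 1 factor per library, and changes are differences of log2(scaled RPKM + 1). These understate the change of genes with low levels. The number of reads behind a value is unknown.

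How alike the summed pairs are is shown by stretches of their coding sequence, counted from base 1 of the start codon, taken from RefSeq's R64 genome. Capitals mark the bases at which the copies differ. TEF1 and TEF2 both encode eEF1A and differ at 2 of 1377 coding bases, and coding bases 703 to 762 hold 1 of these differences.
TEF1: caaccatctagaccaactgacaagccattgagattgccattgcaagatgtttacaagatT
TEF2: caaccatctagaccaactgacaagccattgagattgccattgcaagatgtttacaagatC
TIF1 and TIF2 both encode eIF4A, the helicase that unwinds mRNA leaders, and differ at 6 of 1188 coding bases. Coding bases 169 to 228 hold 2 of the differences.
TIF1: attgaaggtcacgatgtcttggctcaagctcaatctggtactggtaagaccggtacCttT
TIF2: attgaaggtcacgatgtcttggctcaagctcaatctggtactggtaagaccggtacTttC
EFT1 and EFT2 both encode eEF2 and differ at 4 of 2529 coding bases, with an identical run of 1262 bases. Every other pair of paralogs compared was further apart. HYP2, which encodes the eIF5A made in the presence of oxygen, and ANB1, its hypoxic counterpart outside the set, shared 90.9% of coding bases and no identical run longer than 43 bases. Their values are given singly, with HYP2 as uncertain to that extent.
HYP2: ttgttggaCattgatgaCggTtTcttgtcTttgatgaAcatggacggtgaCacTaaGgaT
ANB1: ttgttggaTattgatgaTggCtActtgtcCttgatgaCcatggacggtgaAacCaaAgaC
These lines are coding bases 274 to 333, which hold 10 of the 43 differing positions of this pair.

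A sequence element was shared by most members. AAAAATTT, the core of the RRPE (ribosomal RNA processing element, known in yeast from the promoters of ribosome biogenesis genes), stood on either strand in the 250 bases before the start codon of 25 of 37 members, 67.6%. Over all 6007 such windows it stood in 13.4%. The promoters below are the 250 bases before the start codon in R64, read on the strand of the gene, with RRPE matches in capitals. The windows shown were picked after the values were seen. The first 7 belong to factors whose mRNAs stood at least 1.5-fold higher with SO2 in AWRI796. They are EFT1 (chr15:574848-575097, plus strand), EFT2 (chr4:1242980-1243229, plus strand), TIF1 (chr11:554737-554986, plus strand), NIP1 (chr13:895427-895676, minus strand), YEF3 (chr12:636530-636779, plus strand), HYP2 (chr5:85426-85675, plus strand) and TIF34 (chr13:558525-558774, minus strand).
EFT1: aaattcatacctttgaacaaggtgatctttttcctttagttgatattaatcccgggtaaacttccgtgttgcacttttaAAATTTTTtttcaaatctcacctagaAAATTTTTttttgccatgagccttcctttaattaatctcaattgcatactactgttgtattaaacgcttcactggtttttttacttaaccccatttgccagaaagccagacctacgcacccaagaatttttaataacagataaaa
EFT2: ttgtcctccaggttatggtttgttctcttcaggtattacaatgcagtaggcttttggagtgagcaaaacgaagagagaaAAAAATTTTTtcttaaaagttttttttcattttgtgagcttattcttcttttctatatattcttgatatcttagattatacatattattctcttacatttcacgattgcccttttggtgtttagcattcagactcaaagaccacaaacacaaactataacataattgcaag
TIF1: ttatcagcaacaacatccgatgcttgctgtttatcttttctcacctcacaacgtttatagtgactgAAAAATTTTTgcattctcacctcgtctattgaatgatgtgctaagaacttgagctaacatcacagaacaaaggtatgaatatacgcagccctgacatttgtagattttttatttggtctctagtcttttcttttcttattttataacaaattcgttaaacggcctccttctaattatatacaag
NIP1: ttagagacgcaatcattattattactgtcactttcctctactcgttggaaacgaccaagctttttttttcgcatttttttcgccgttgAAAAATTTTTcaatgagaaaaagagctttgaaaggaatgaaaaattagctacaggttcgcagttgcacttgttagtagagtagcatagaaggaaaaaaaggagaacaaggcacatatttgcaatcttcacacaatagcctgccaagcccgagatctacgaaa
YEF3: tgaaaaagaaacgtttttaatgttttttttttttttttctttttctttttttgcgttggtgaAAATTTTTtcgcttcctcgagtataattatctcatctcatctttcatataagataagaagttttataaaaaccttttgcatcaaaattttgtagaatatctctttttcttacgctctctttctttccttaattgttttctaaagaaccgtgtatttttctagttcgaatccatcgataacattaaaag
HYP2: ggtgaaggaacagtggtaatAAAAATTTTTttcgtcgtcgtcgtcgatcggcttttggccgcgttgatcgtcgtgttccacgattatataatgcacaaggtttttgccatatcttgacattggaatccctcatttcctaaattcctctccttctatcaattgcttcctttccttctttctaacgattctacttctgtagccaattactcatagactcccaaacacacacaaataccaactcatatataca
TIF34: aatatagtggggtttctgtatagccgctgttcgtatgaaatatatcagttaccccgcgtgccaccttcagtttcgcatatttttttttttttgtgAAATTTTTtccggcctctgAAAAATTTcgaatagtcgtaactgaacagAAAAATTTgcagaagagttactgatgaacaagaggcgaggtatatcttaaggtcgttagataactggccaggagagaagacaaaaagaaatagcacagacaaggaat
Where 2 matches on opposite strands overlap, they merge into a run of 10 capitals, as in NIP1 and HYP2, while TIF34 held 3 matches. The 3 members that stood at least 1.5-fold lower with SO2 in AWRI796 held no match. They are CDC123 (chr12:571859-572108, minus strand), GCD7 (chr12:719463-719712, minus strand) and HCR1 (chr12:539590-539839, minus strand).
CDC123: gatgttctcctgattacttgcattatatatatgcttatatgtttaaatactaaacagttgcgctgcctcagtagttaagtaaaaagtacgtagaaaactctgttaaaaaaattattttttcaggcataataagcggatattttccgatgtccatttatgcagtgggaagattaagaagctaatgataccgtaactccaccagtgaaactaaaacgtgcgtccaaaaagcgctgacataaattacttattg
GCD7: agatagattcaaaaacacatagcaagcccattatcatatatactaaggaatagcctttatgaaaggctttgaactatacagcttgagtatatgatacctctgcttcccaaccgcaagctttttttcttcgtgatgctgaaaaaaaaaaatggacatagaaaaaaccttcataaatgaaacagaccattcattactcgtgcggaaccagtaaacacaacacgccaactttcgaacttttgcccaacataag
HCR1: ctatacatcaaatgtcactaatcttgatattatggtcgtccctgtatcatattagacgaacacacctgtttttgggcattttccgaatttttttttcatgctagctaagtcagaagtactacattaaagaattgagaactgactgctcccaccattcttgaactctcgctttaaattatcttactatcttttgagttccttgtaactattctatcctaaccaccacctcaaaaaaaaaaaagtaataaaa
The element and the direction did not go together throughout. FUN12, SUI2, GCD11, TIF35, TIF4631 and SUP35 held a match but stayed under 1.5-fold either way in AWRI796. Their log2 changes ran from -0.10 to 0.50. PRT1, TIF11 and PAB1 stood at least 1.5-fold higher in AWRI796 without a match, and 5 further members without a match or a near-identical copy stayed under 1.5-fold either way. Windows of members that held a match but stayed under 1.5-fold are not shown, so the windows shown do not stand for all members. Of those that stood higher without a match, the PRT1 window (chr15:1017653-1017902, minus strand) is shown.
PRT1: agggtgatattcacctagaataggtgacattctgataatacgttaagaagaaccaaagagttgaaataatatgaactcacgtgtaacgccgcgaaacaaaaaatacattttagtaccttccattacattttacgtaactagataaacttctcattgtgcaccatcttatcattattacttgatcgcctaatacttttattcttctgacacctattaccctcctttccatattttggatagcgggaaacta

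In AWRI796, most translation factor mRNAs stood higher with SO2 than without it. Of the 34 genes or sums, 20 stood higher by 1.5-fold or more and 3 stood lower by as much, against 17.6% and 15.4% of the 5155 genes compared in this strain. Their median log2 change was 0.63, a 1.54-fold higher level, while the median of all genes was 0.00. Under quantile normalization 12 were higher, against 16.4% of genes, and with a pseudocount of 5 only 1 was lower. In VL3 the shift was smaller: 8 of 33 were at least 1.5-fold higher and 0 lower, against 10.7% and 9.87% of 5147 genes, with a median log2 change of 0.22 against -0.01 for all genes. Without scaling factors the VL3 counts were 12 higher and 0 lower, against 18% and 5.63% of all genes, whose median then stood at 0.15. With 1 library per group these sizes have no replicate check. In such bulk RNA, a change in the cells' state and a change in the mix of cells within a culture cannot be told apart.

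Between the strains, 17 of the 33 lay above 0 in both, 1 below 0 in both, and 15 in opposite directions. Over 5089 genes these shares were 26.4%, 27.4% and 46%, so opposite directions were as frequent as the background. Without scaling factors the members' counts were 24, 1 and 8, against 30.4%, 21.9% and 47.5% of genes. The 6 that stood at least 1.5-fold higher in both, against 2.83% of genes, were TIF11, SUI3, RPG1, PAB1, HYP2 and the TEF1 and TEF2 sum. Under quantile normalization 3 did, TIF11, RPG1 and PAB1, against 2.67%. Fitted over both strains with strain as a block, limma called 0 of 33 at an adjusted p under 0.05, and 0 of 5089 genes (0%). At an unadjusted p under 0.05, limma marked 4 of the 33, all of them higher with SO2, and 377 of all genes, 7.41%. Fitted changes of the 33 ran from -0.24 to 1.01 with a median of 0.41, and their standard errors ran from 0.29 to 0.51. The fit has 1 residual degree of freedom, so its errors rest mostly on a spread pooled over genes.

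**Figure D1:**
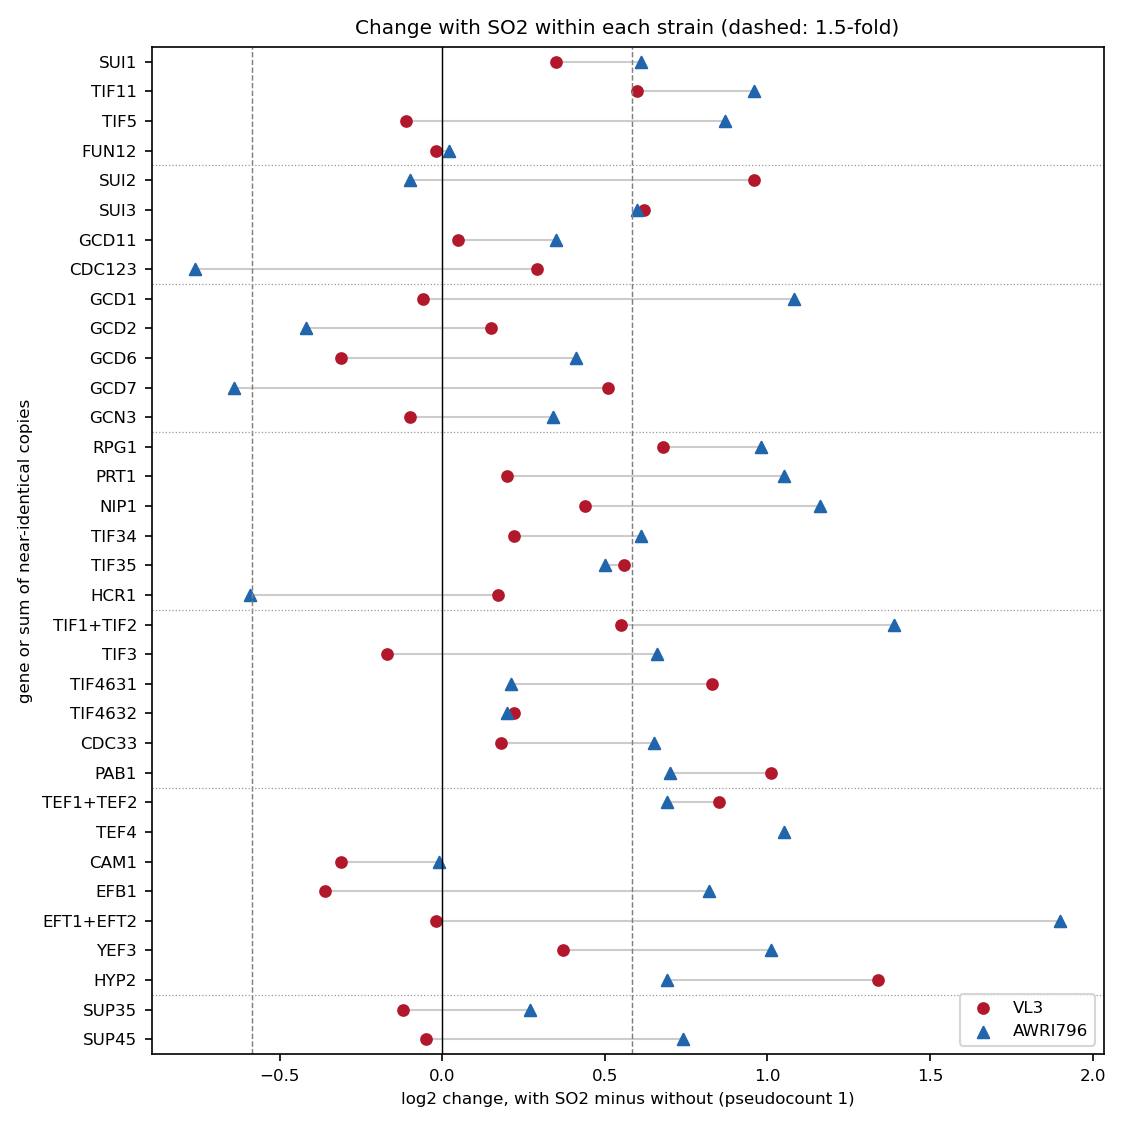
Log2 change with SO2 (horizontal axis, pseudocount 1) of each gene or copy sum in VL3 (circles) and AWRI796 (triangles), grouped by role with dotted lines between groups and dashed lines at 1.5-fold. In AWRI796, 20 of 34 triangles reach the upper line and 3 the lower one, while 8 of 33 circles reach the upper line and 0 the lower.

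Start codon factors had a median log2 change of 0.74 in AWRI796, where 3 of 4 stood at least 1.5-fold higher, and of 0.16 in VL3, where 1 did. Beside these counts, 17.6% of all genes in AWRI796 and 10.7% in VL3 stood at least 1.5-fold higher. TIF11 (YMR260C, chromosome 13), encoding eIF1A, which opens the small subunit for scanning, stood at 141 without and 274 with SO2 in AWRI796, at 79.7 and 121 in VL3, and with SO2 at 179.5 in EC1118 and 132 in R008. It was 1.94-fold higher with SO2 in AWRI796 and 1.51-fold higher in VL3. SUI1 (YNL244C, chromosome 14), encoding eIF1, which guards the choice of start codon, stood at 493 and 751 in AWRI796, at 243 and 309.9 in VL3, at 427 in EC1118 and at 537 in R008. Both genes were highest in AWRI796 with SO2 and lowest in VL3 without it. FUN12 (YAL035W, chromosome 1), encoding eIF5B, which joins the large subunit, differed least: 155 and 158 in AWRI796 and 165 and 163 in VL3. Its levels in EC1118, 89.1, and R008, 109, were lower than in the other 4 libraries. TIF5, encoding eIF5, the GTPase activator of eIF2, stood at 112 and 206 in AWRI796 and at 195 and 180.0 in VL3.

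The genes of eIF2 and its assembly factor did not share a direction in AWRI796. SUI2 (YJR007W, chromosome 10), encoding the alpha subunit that Gcn2 phosphorylates in starved yeast, stood at 10.7 without and 21.7 with SO2 in VL3, at 41.7 and 38.7 in AWRI796, at 68.8 in EC1118 and at 41.3 in R008. Both VL3 libraries lay below the other 4, and the 1.94-fold higher level with SO2 in VL3 started from the lowest level in the series. SUI3 (YPL237W, chromosome 16), encoding the beta subunit, stood at 110.1 and 169.8 in VL3, at 174 and 264 in AWRI796, at 177 in EC1118 and at 146 in R008. With SO2 it stood 1.54-fold higher in VL3 and 1.51-fold in AWRI796. A dubious reading frame on the opposite strand, YPL238C, overlaps SUI3 by 368 bases and had at most 1.92 RPKM. GCD11, encoding the gamma subunit that binds the initiator tRNA, had log2 changes of 0.05 in VL3 and 0.35 in AWRI796. CDC123 (YLR215C, chromosome 12), needed to assemble eIF2, stood at 17.4 without and 9.85 with SO2 in AWRI796, at 12.2 and 15.1 in VL3, at 16.9 in EC1118 and at 13.9 in R008. It was 1.7-fold lower with SO2 in AWRI796, where both its highest and its lowest level of the series were found.

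The 5 subunits of eIF2B split as well. GCD1 (YOR260W, chromosome 15), encoding the gamma subunit, stood at 20.7 without and 45 with SO2 in AWRI796, at 24.2 and 23.2 in VL3, at 36.4 in EC1118 and at 27.7 in R008, which is 2.12-fold higher with SO2 in AWRI796. GCD7 (YLR291C, chromosome 12), encoding the beta subunit, stood at 29.1 and 18.4 in AWRI796, at 13.2 and 19.2 in VL3, at 24.4 in EC1118 and at 18.5 in R008, which is 1.55-fold lower with SO2 in AWRI796. The level of GCD7 thus lay between 18.4 and 24.4 in all 4 libraries with SO2, and outside that range in both libraries without it. These libraries differ in strain as well, and how often other genes do so was not counted. GCD6 (YDR211W, chromosome 4), encoding the catalytic epsilon subunit, stood at 186 and 149.7 in VL3, at 129 and 172 in AWRI796, at 135 in EC1118 and at 129.9 in R008. GCD2 and GCN3, the delta and alpha subunits, stayed under 1.5-fold in both strains. GCD6 and GCN3 had higher RPKM in every library than GCD1, GCD2 and GCD7, although the proteins join a single complex.

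Among eIF3 genes, 4 of 6 stood at least 1.5-fold higher with SO2 in AWRI796 and 1 lower, against 17.6% and 15.4% of all genes. The median log2 change was 0.79. In VL3 all 6 lay above 0, 1 of them by at least 1.5-fold (10.7% of all genes), with a median of 0.33. NIP1 (YMR309C, chromosome 13), encoding the c subunit, stood at 158 without and 353 with SO2 in AWRI796, at 188 and 256 in VL3, at 207 in EC1118 and at 205 in R008. PRT1 (YOR361C, chromosome 15), encoding the b subunit, stood at 132 and 274 in AWRI796, at 217 and 249 in VL3, at 194 in EC1118 and at 145 in R008. Both were lowest in AWRI796 without SO2 and highest in AWRI796 with it, by 2.23-fold for NIP1 and 2.07-fold for PRT1. RPG1, the a subunit, was 1.98-fold higher in AWRI796 and 1.6-fold higher in VL3. The fitted RPG1 change over both strains was 0.83 ± 0.29 (standard error) in log2 terms, with an adjusted p of 0.605 by limma. The exception was HCR1 (YLR192C, chromosome 12), encoding the loosely bound j subunit, which is also known from ribosome recycling. HCR1 stood at 78.7 without and 52 with SO2 in AWRI796, at 62.2 and 70 in VL3, at 73.6 in EC1118 and at 59.3 in R008, 1.5-fold lower with SO2 in AWRI796.

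In the eIF4 and poly(A) group, all 6 lay above 0 in AWRI796, 4 of them at least 1.5-fold higher (17.6% of all genes). Their median was 0.65. In VL3 the median was 0.38 and 2 of 6 were at least 1.5-fold higher, against 10.7% of all genes. The TIF1 and TIF2 sum stood at 444 without and 1163 with SO2 in AWRI796, at 621 and 908 in VL3, at 931 in EC1118 and at 561 in R008, so that it was 2.61-fold and 1.46-fold higher with SO2. PAB1 (YER165W, chromosome 5), encoding the poly(A)-binding protein, stood at 132 and 214 in AWRI796, at 79 and 159.9 in VL3, at 207 in EC1118 and at 188 in R008. All 4 libraries with SO2 held more PAB1 mRNA than either library without it. The same order held for NIP1, RPG1, TIF34 and HYP2. R008 and EC1118 enter only with SO2, so this order mixes strain with SO2. How often it occurs over all genes was not counted. The fitted PAB1 change over VL3 and AWRI796 was 0.85 ± 0.31 (standard error), with an adjusted p of 0.605 by limma. The scaffold eIF4G is made from a pair of genes. TIF4631 was 1.78-fold higher in VL3, with a log2 change of 0.21 in AWRI796. TIF4632 (YGL049C, chromosome 7) stood at 118 and 138 in VL3, at 85.1 and 98.2 in AWRI796, at 77.5 in EC1118 and at 111 in R008, and exceeded TIF4631 in every library. CDC33, the cap-binding eIF4E, was 1.57-fold higher in AWRI796 with a log2 change of 0.18 in VL3.

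Elongation factors mostly stood higher with SO2 in AWRI796, 6 of 7 by at least 1.5-fold, against 17.6% of all genes. The median of their log2 changes was 0.82 (0.56 under quantile normalization). In VL3, 2 of 6 stood at least 1.5-fold higher, against 10.7% of all genes, with a median of 0.18. The EFT1 and EFT2 sum, for eEF2, stood at 202 without and 756 with SO2 in AWRI796, at 798 and 787 in VL3, at 695 in EC1118 and at 2429 in R008. It was 3.72-fold higher with SO2 in AWRI796, the widest change of any member, and lay in that library within the range of the VL3 and EC1118 libraries. The low value without SO2 and the high value in R008 are the ones that stand apart. YEF3 (YLR249W, chromosome 12), for eEF3, stood at 1106 and 2232 in AWRI796, at 1682 and 2176 in VL3, at 1363 in EC1118 and at 1214 in R008. The TEF1 and TEF2 sum, for eEF1A, stood at 647 and 1047 in AWRI796, at 1066 and 1918 in VL3, at 1086 in EC1118 and at 768 in R008. Its level was 1.62-fold and 1.8-fold higher with SO2, and VL3 lay above AWRI796 at either SO2 level.

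HYP2 (YEL034W, chromosome 5), for eIF5A, stood at 131 without and 331 with SO2 in VL3, at 241 and 390.2 in AWRI796, at 281 in EC1118 and at 363 in R008. Every library with SO2 lay above both without it, an order that mixes strain with SO2 as for PAB1. The fitted change of HYP2, 1.01 ± 0.34 (standard error), was the highest of the 33, with an adjusted p of 0.605 by limma. ANB1, the paralog, had more mRNA than HYP2 in each library, from 563 in AWRI796 without SO2 to 1362 in EC1118. A dubious reading frame, YEL034C-A, covers all 474 bases of HYP2 on the opposite strand and had at most 5.81 RPKM. The subunits of eEF1B, which recharges eEF1A, went different ways. EFB1 (YAL003W, chromosome 1), the catalytic alpha subunit, stood at 229 and 405 in AWRI796, at 376 and 294 in VL3, and at 241 in both EC1118 and R008, so that it was 1.77-fold higher with SO2 in AWRI796 and 1.28-fold lower in VL3. CAM1 (YPL048W, chromosome 16), a gamma subunit, stood at 52 and 51.5 in AWRI796, at 82.9 and 66.8 in VL3, at 66.9 in EC1118 and at 58.3 in R008. TEF4, the other gamma subunit gene, was 2.07-fold higher with SO2 in AWRI796, at 44.4 and 92.9, stood at 70.2 in R008, and had no value in VL3 or EC1118.

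Release factors had log2 changes near 0 in VL3, -0.05 for SUP45 and -0.12 for SUP35, with a median that turned from -0.09 to 0.09 without scaling factors. SUP45 (YBR143C, chromosome 2), encoding eRF1, which reads the stop codon, stood at 521 without and 871 with SO2 in AWRI796, at 531 and 511 in VL3, at 472 in EC1118 and at 441 in R008. AWRI796 with SO2 was the only library outside the range from 441 to 531. SUP35 (YDR172W, chromosome 4), encoding the GTPase eRF3, stood at 195 and 236 in AWRI796, at 355 and 327 in VL3, at 247 in EC1118 and at 227 in R008. Both VL3 libraries lay above the other 4.

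**Figure D2:**
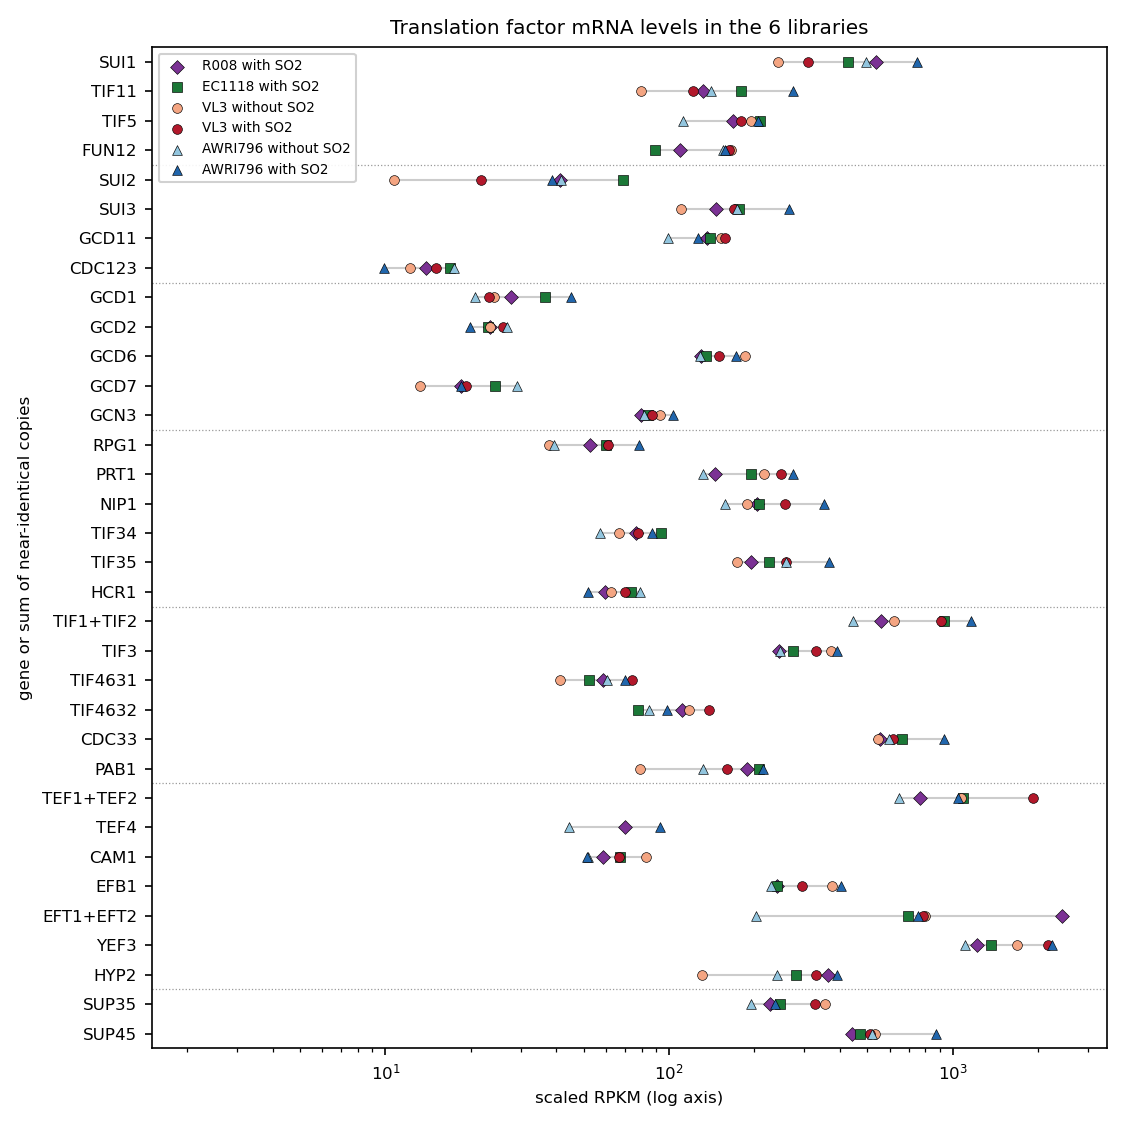
Scaled RPKM on a log axis for each gene or copy sum in the 6 libraries (symbols), with a grey line from the lowest to the highest library and dotted lines between roles. AWRI796 with SO2 (dark triangles) is the highest library for 17 of the 33 members with all values, and AWRI796 without SO2 (light triangles) is the lowest for 13.

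AWRI796 without SO2 was the lowest of the 6 libraries for 13 of 33 members, against 20.9% of all genes, and AWRI796 with SO2 the highest for 17, against 18.1%. VL3 without SO2 was the lowest for 11, against 22.5%. Summed over the members, levels came to 7047 without and 12348 with SO2 in AWRI796, to 8853 and 11054 in VL3, to 9123 in EC1118 and to 9823 in R008. In AWRI796 the factors with more mRNA tended to have higher changes, with a Spearman rho of 0.55 between mean log2 level and change over 34 genes or sums. In VL3 rho was -0.03 over 33. These points share libraries, and low levels are compressed by the pseudocount, so rho is given as a description. It was not computed over all genes or under quantile normalization, so it is not shown to be particular to the factors.

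Markers of stationary phase were measured beside these values. Of the 12 in the list, 3 (25%) stood at least 1.5-fold higher and 5 (41.7%) lower with SO2 in AWRI796. All genes gave 17.6% and 15.4%. The median log2 change of the markers was -0.18. In VL3, 4 were higher and 2 lower, against 10.7% and 9.87% of genes. Without SO2, 9 of the 12 stood at least 1.5-fold higher in AWRI796 than in VL3 and 2 lower, against 19.6% and 19.2%. The summed level of the 12 was 19104 without and 4305 with SO2 in AWRI796, 2700 and 3333 in VL3, 1931 in EC1118 and 8225 in R008. HSP12, a small stress protein of the membrane, stood at 12049 without and 2600 with SO2 in AWRI796, and HSP26 at 6372 and 996. Together HSP12 and HSP26 made most of the AWRI796 sums, which thus follow these genes more than the list. The 3 markers that stood higher with SO2 in AWRI796 were GRE1, from 60.2 to 241, SPG4 and FMP45. No marker was at 0. Their part in the changes of the translation factors was not tested. Genes of chromosome 1, which holds FUN12 and EFB1, had a median log2 change of -0.47 in AWRI796 over 74 genes, whereas the medians of the other chromosomes ran from -0.10 to 0.07. The median difference of AWRI796 minus VL3 on chromosome 1 was 0.44 without SO2 and -0.04 with it. Against this, FUN12 changed by 0.02 and EFB1 by 0.82 with SO2 in AWRI796. The 3 members that stood lower in AWRI796 all lie on chromosome 12, as does YEF3, and the median of that chromosome was -0.02.

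Within AWRI796, ribosomal protein genes and cytosolic tRNA synthetases, whose products supply the same machinery, gave a frame for size. The median log2 change of ribosomal protein genes was 1.67, with 127 of 134 at least 1.5-fold higher and 2 lower. That of synthetases was 0.80, with 15 of 19 higher and 0 lower. Of all genes, 17.6% were higher and 15.4% lower. Translation factors, at 0.63, held the lowest median of the 3 lists. In VL3 the medians were 0.34 for ribosomal protein genes, 0.11 for synthetases and 0.22 for the factors. Differences between these lists were not tested.

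**Figure D3:**
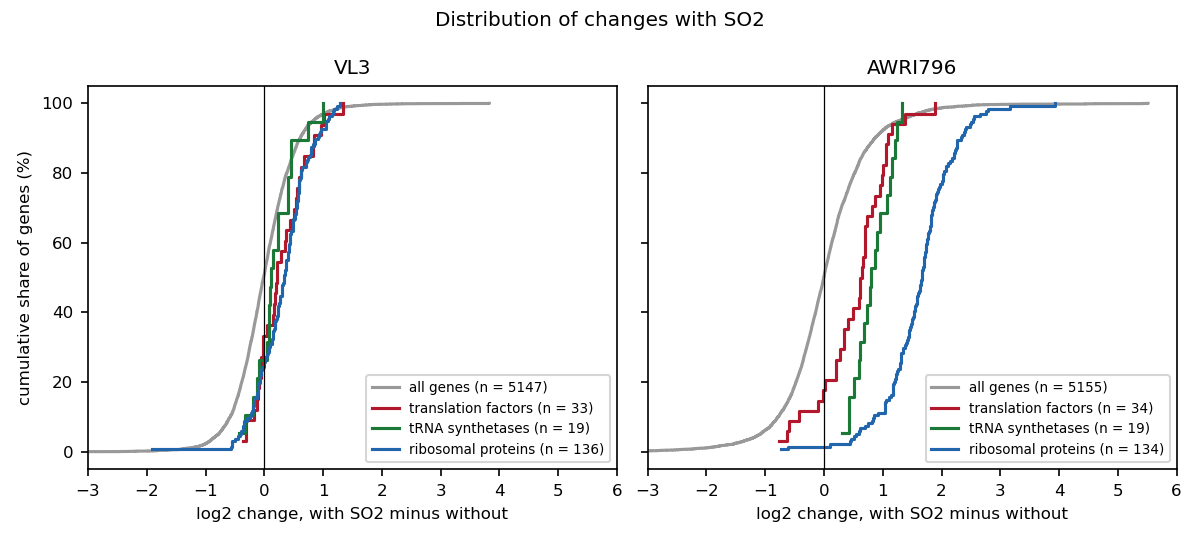
Cumulative share of genes (vertical axis, %) against the log2 change with SO2 in VL3 (left) and AWRI796 (right) for all genes, the translation factors, cytosolic tRNA synthetases and ribosomal protein genes; the horizontal axis starts at -3, and a few genes lie below it. In AWRI796 the lines of the factors (median 0.63), the synthetases (0.80) and the ribosomal protein genes (1.67) lie to the right of all genes (0.00), and in VL3 they lie closer together.

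Members with the RRPE element and members without it had different median changes in AWRI796 and nearly the same in VL3; neither was tested. Leaving out the copy pairs, the 20 members with a match had a median log2 change of 0.65 in AWRI796, from -0.10 to 1.16, and 14 of them, 70%, were at least 1.5-fold higher. The 11 without a match had a median of 0.20, from -0.76 to 1.05, with 3 higher (27.3%) and 3 lower. PRT1, TIF11 and PAB1 are the 3 that stood higher without a match. In VL3 the medians were 0.22 over 19 with a match and 0.20 over 11 without, and 5 (26.3%) and 2 (18.2%) stood at least 1.5-fold higher. Over all other genes in AWRI796, the median was 0.15 for 719 genes with a match and -0.03 for 4307 without, and 24.6% and 16.1% of them were at least 1.5-fold higher. In VL3 these shares were 12.9% and 10.2%.

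The share of windows with the element was 78.9% of synthetases (15 of 19) and 11.7% of ribosomal protein genes (16 of 137). The list with the widest change in AWRI796 thus had the lowest share of the 3. The same letters in reverse order, TTTAAAAA, stood in 1 of 37 member windows, 2.7%, and in 5.74% of all windows. GATGAG, the core of the PAC element often found beside the RRPE in yeast, stood in 8 of 37, 21.6%, against 17%. The Rap1 letters ACCCANACA and the Gcn4 letters TGACTC stood in 0 of 37, against 1.33% and 6.24% of all windows. In ribosomal protein genes the Rap1 letters stood in 9 of 137 windows, 6.57%. A window without these letters does not show that a gene lacks Rap1 sites. Both strands were searched for each motif with overlapping matches allowed, and a match is a description of the letters only.

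**Figure D4:**
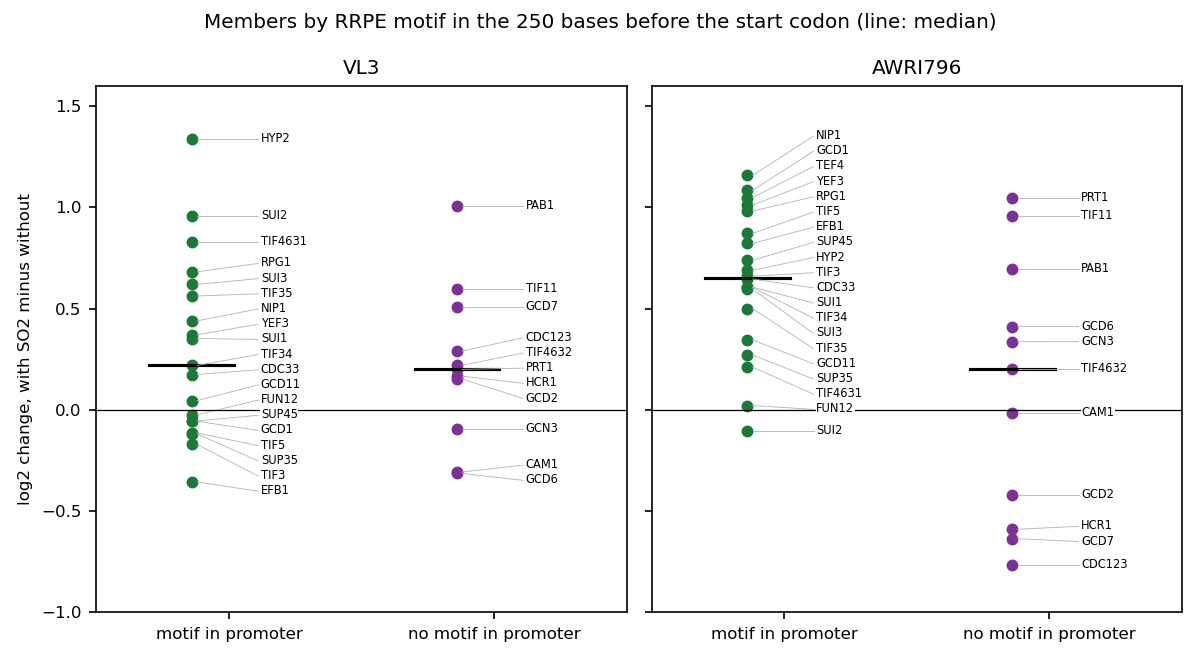
Log2 change with SO2 of the members without a near-identical copy, in VL3 (left) and AWRI796 (right), by whether AAAAATTT stands within 250 bases before the start codon on either strand; each point is a gene and the black bar is the median. In AWRI796 the medians are 0.65 with and 0.20 without a match, and in VL3 0.22 and 0.20.

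For TEF1 and TEF2, the split between the copies differed by strain far more than by SO2. Of the TEF1 and TEF2 sum, TEF1 held 2.43% and 2.31% in VL3 without and with SO2, and 51.9% and 47.9% in AWRI796. EC1118 stood at 47.7%, while in R008 the table gave 768 to TEF1 and 0.341 to TEF2. The sum was thus nearly all TEF2 in VL3, nearly all TEF1 in R008 and about even in AWRI796 and EC1118. For EFT1 and EFT2, the first copy held between 25.7% and 52.1% of the sum in every library. For TIF1 and TIF2, TIF1 held 31.4% in R008 and between 59.2% and 80.6% in the other 5 libraries. In AWRI796 the share of TIF1 was 59.2% without and 75.5% with SO2 and that of EFT1 49.2% and 39.8%, gaps wider than those between VL3 and AWRI796 at the same SO2 level. How reads were shared between copies is not given in the sources used here, and strains may carry other sequences at the differing bases, so single copies are uncertain.

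**Figure D5:**
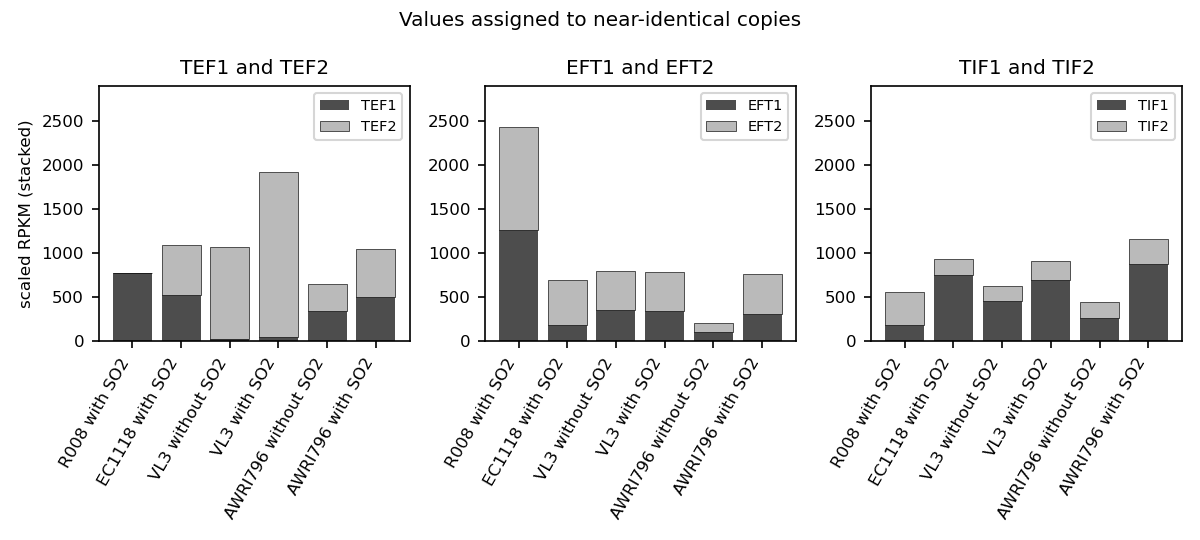
Scaled RPKM (vertical axis, bars starting at 0) given to each copy of the TEF1 and TEF2, EFT1 and EFT2, and TIF1 and TIF2 pairs, stacked, in the 6 libraries. The TEF1 part is 2.43% and 2.31% of the bar in VL3 and 51.9% and 47.9% in AWRI796, and the EFT1 and EFT2 bar reaches 2429 in R008.

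AWRI796 and VL3 were also compared with each other at the same SO2 level. Without SO2, 7 of 33 members stood at least 1.5-fold higher in AWRI796 and 10 lower, against 19.6% and 19.2% of 5089 genes. Of the 6 elongation factors or sums with values, 5 were lower in AWRI796 and 1, HYP2, was higher, with a median log2 difference of -0.69. The widest single differences were a 3.93-fold lower EFT1 and EFT2 sum, a 3.65-fold higher SUI2 and a 2.12-fold higher GCD7. With SO2, 7 members were higher and 1 lower in AWRI796, against 15.9% and 12.3% of genes, and the elongation median was -0.01. The 1 lower was the TEF1 and TEF2 sum, and the widest of the higher ones were SUI1 at 2.42-fold, TIF11 at 2.25-fold and GCD1 at 1.9-fold. Over all members the median difference was -0.19 without and 0.20 with SO2. Without scaling factors the former turned to 0.18, where the median of all genes was 0.34.

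Tested over both SO2 levels, limma called 0 of 33 members between AWRI796 and VL3 and 16 of 5089 genes, 0.314%. At an unadjusted p under 0.05, limma marked 3 of 33 members, all higher in AWRI796, against 12% of all genes, a share near that background. The lowest adjusted p was 0.204, for SUI2, with a fitted log2 difference of 1.34 ± 0.35 (standard error). SUI2 stood higher in AWRI796 at both SO2 levels. The fit takes the SO2 levels as repeats of each strain, so its p-values do not measure the spread between cultures of a strain. The libraries without SO2 serve both in this difference and in the change with SO2.

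Taken gene by gene, R008, the vineyard strain, tended to rank low for these factors among the 4 libraries with SO2. Summed over the members, the R008 level of 9823 lay above EC1118 (9123) and below VL3 (11054) and AWRI796 (12348). R008 was the lowest of the 4 for 17 of 33 members, against 21.3% of all genes. It was the highest for 1 (20.1% of all genes), the EFT1 and EFT2 sum. Against the median of the other 3, that sum was 3.21-fold higher, YEF3 was 1.79-fold lower and PRT1 was 1.72-fold lower. In limma's fit of R008 against the 3 enological strains, 0 of 33 members passed, and 8 of 5006 genes did, 0.16%. At an unadjusted p under 0.05, limma marked 1 of 33 members, against 3.1% of all genes, which is the background share. That member was the EFT1 and EFT2 sum, with a fitted difference of 1.70 ± 0.44 (standard error) and an adjusted p of 0.566 by limma. The single R008 library was assumed to vary like the others. In EC1118, set against the median of the other 3 libraries with SO2, SUI2 was 1.76-fold higher, FUN12 was 1.76-fold lower and YEF3 was 1.6-fold lower.

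Beyond the members, 28 further genes of translation were listed, among them helicases, the Gcn2 pathway, recycling factors, paralogs and enzymes that modify eIF5A and eEF2. Of the 27 that passed the filter, 11 (40.7%) stood at least 1.5-fold higher and 2 (7.41%) lower with SO2 in AWRI796, with a median of 0.28. Over all genes these shares were 17.6% and 15.4%. Of 26 in VL3, 4 (15.4%) were higher and 2 (7.69%) lower, with a median of 0.12. These VL3 shares were near those of all genes, 10.7% and 9.87%. STM1, which binds ribosomes and preserves them when nutrients run out, had one of the highest mean changes, from 532 to 1405 in AWRI796 and from 780.3 to 1331 in VL3. The other was RLI1, the recycling ATPase, from 28.7 to 78.9 and from 29.6 to 47.8. Both therefore stood higher with SO2 in each strain. The lowest mean changes were those of HEF3, the little-used paralog of YEF3, which went from 24.2 to 8.31 in AWRI796 and from 36.8 to 13.4 in VL3, and of DBP1, a helicase related to the initiation helicase Ded1, from 34.4 to 8.74 and from 23.5 to 19.9. HEF3 thus stood lower with SO2 in both strains, where YEF3 stood higher. GCN4, the activator of amino acid synthesis whose translation depends on eIF2 and eIF2B in yeast, stood at 394 without and 1207 with SO2 in AWRI796, at 418 and 395 in VL3, at 1346 in EC1118 and at 783 in R008.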

How the data were processed

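RNA freed of ribosomal RNA was made into SOLiD 4 whole transcriptome libraries, per the labels' protocols. The authors deposited RPKM, per the file headers; aligner, counter, genome build and gene models: not given in the sources used here. Start and end of all 37 members equal those of R64. Of 6611 rows, 6534 carried a database identifier and 8 that shared a systematic name were left out; 0 value columns were unused. Depth is unknown: at best, 27.0% to 30.1% of the low RPKM tested came within 0.1 of whole reads. RPKM sums ran from 765473 to 1070965.

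RPKM were divided by median-of-ratios factors from 4993 genes (0.88 to 1.153), and log2(scaled RPKM + 1) was used for genes with a mean of at least 5 RPKM. Limma 3.58.1 in R 4.3.3 (lmFit, eBayes with trend, two-sided, Benjamini-Hochberg over all genes at 0.05) was fitted to VL3 and AWRI796 with strain and SO2 (1 residual, 6.49 prior degrees of freedom), and to R008 against 3 strains (2 and 8.62). Both fits were also run on simulated data with equal, independent noise in every gene and library. There the SO2 changes were the same in both strains, so the run checks the code and not the p-values given here. The labels do not make libraries of separate strains replicates. In the fit of VL3 and AWRI796, p-values rest on how far the SO2 change differed between these strains, besides the spread pooled over genes. Its strain difference takes the SO2 levels as repeats of each strain. In the R008 fit, p-values rest on the spread among the 3 enological strains and the pooled spread. Within a strain, a change of at least 1.5-fold is a size and not a test. Values in every library are given for the copy sums, the 3 highest and 3 lowest changes per strain, the extremes of each role in AWRI796 and the 3 widest differences of each strain comparison; of other pathway genes, GCN4 and the 2 highest and 2 lowest mean changes are named. Any other gene named was chosen after its values were seen. Members, lists, tests and motifs were chosen with earlier results of these data known. Alternatives changed the scaling, pseudocount (0.1 or 5), filter (none or 20), copies, trend and libraries.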

Additional observations from a re-analysis of the deposited data

Results flagged for a closer look

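With SO2, 10 genes or sums lay above 0 in one strain and below 0 in the other, with at least one change of 1.5-fold or more. Over all 33 members 15 lay on opposite sides, near the 46% of all genes. That share leaves the size of the change aside. All genes were not counted by the rule with a size, so the 10 have no background beside them. Without scaling factors only 5 of the 10 stayed on opposite sides: the VL3 change turned to 0.15 for the EFT1 and EFT2 sum, 0.11 for GCD1, 0.06 for TIF5 and 0.12 for SUP45, and came to 0.00 for TIF3. Each strain has 1 library without and 1 with SO2, so the difference between the strains' changes was not tested. The log2 changes below are given for VL3 first and AWRI796 second, with the difference as AWRI796 minus VL3. In 6 cases AWRI796 had the higher change. The EFT1 and EFT2 sum had log2 changes of -0.02 and 1.90, a difference of 1.91. EFB1 had log2 changes of -0.36 and 0.82, a difference of 1.18, and GCD1 of -0.06 and 1.08, a difference of 1.14. TIF5 had log2 changes of -0.11 and 0.87 (0.99), TIF3 of -0.17 and 0.66 (0.83), and SUP45 of -0.05 and 0.74 (0.79). In the other 4, VL3 had the higher change. GCD7 had log2 changes of 0.51 and -0.64, a difference of -1.14, and SUI2 of 0.96 and -0.10, a difference of -1.06. CDC123 had log2 changes of 0.29 and -0.76 (-1.06), and HCR1 of 0.17 and -0.59 (-0.76).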

How the results depend on the processing

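With near-identical copies counted singly, limma called 1 member between AWRI796 and VL3 (TEF1, adjusted p 0.00219) and 1 for R008 (TEF2, adjusted p 4.75e-05), where the fits with summed copies called 0; the adjusted p of the TEF1 and TEF2 sum by limma was 0.476 between the strains. Singly counted values rest on how reads were shared. In AWRI796, quantile normalization left 12 members at least 1.5-fold higher in place of 20, and a pseudocount of 5 left 1 lower in place of 3; the cause was not tested. The median change was 0.46 in AWRI796 under quantile normalization and 0.39 in VL3 without scaling factors. The other 58 values of these counts and fits each stayed within 1.5 times the main one. Many of them set 0 beside 0, which was taken as unchanged. The SO2 fit called 0 members in every setting, and 0 members stood at least 1.5-fold lower in VL3 in any. Such values do not show that a result holds. None of 360 alternatives moved any of the 46 changes of named genes by more than 1.5-fold. Much of this was fixed in advance. The filter and copy settings cannot alter the change of a gene that stays in. Dropping or remaking the scaling factors shifts all genes by nearly the same amount. Only quantile normalization and the pseudocount could move genes singly. Without scaling factors, role medians turned in VL3 for eIF2B (-0.06 to 0.11) and release factors (-0.09 to 0.09), and between the strains without SO2 for eIF3 (-0.08 to 0.28), eIF4 (-0.17 to 0.20) and eIF2B (-0.19 to 0.18). The SO2 fit pairs libraries by strain, and the labels give no replicate numbers to pair them otherwise.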
